A study of Mus musculus with 4 samples.

Results

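The 43 genes described here encode the machinery that copies DNA and the factors that switch on at the start of S phase, the period of the cell cycle in which chromosomes are duplicated. They were chosen by name: all 43 symbols are among the 31053 features of the deposited matrix, and all 43 had UMIs (unique molecular identifiers, each standing for 1 captured RNA molecule). Cells came from both ends of the tibia (proximal and distal) of 8-week-old mice of the genotype Col10a1Cre, Rosa26-Tdtomato, Irx3 +/Δ, Irx5 +/-, which the submitters name a heterozygous control. Col10a1 is a gene of hypertrophic chondrocytes, so the Cre is driven by a cartilage promoter, not by a blood cell one. The titles read noPTH, where PTH is the usual short form of parathyroid hormone, and all 4 sample records share this genotype, age and treatment, so the labels hold 1 group and no comparison between genotypes or treatments. The matrix pools the 4 records without a mark that separates them. It was treated as 1 library without replicates: no test was possible, every interval below is a 95% interval for counting error only, and each comparison is between cells of this library.

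DNA replication begins when origins are licensed in G1 by loading the MCM helicase, and starts when Cdc45 and the GINS complex join MCM to form the active helicase. Polymerase alpha and primase then lay down primers, the clamp PCNA is placed by replication factor C, ribonucleotide reductase and thymidylate synthase supply nucleotides, and chaperones pack the new DNA with histones. Most of these genes are transcribed under E2F factors at the G1/S border. In bone marrow, dividing precursors of B cells, neutrophils and red cells lie beside their finished forms, which have left the cell cycle.

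The library held 15014 barcodes and 90273806 UMIs. After filters and removal of 522 likely doublets, 10485 cells with a median of 4855 UMIs remained, in 30 clusters of which 5 (498 cells) stayed unnamed. Clusters were formed without the 43 members and without other cell cycle genes, and were named from marker lists. The class called osteoblast-like (129 cells) had 8 raised osteoblast markers and 7 of marrow stroma. Stages within a class were set by marker gates: early B cells had at least 2 UMIs of Vpreb1, Igll1 and Dntt, later B cells had Rag1 or Il2ra, then Ms4a1, and mature B cells had Ms4a1 with Ighd or Fcer2a. Neutrophil stages followed the share of UMIs from specific granule genes (Ltf, Camp, Ngp) and gelatinase granule genes (Mmp8, Mmp9, Retnlg), with Cxcr2 or Il1b for mature cells. Erythroid stages followed the haemoglobin share of UMIs: low (under 20%), middle and high (over 75%). The gates were set after marker distributions, and cluster levels of the members, had been seen. Some barcodes carried markers of 2 cell types: 202 erythroid and 141 neutrophil cells had at least 5 UMIs of B-lineage markers, and the main erythroid and neutrophil results are also given without them. The G2/M levels and the cell by cell splits were not computed without them.

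The members were higher in the early cells of the B, neutrophil and erythroid lines than in the late cells of the same line. Levels are summed CPM, the members' UMIs relative to all UMIs of the cell group, and erythroid levels leave haemoglobin out of the total because haemoglobin took up to 86.7% of a stage's UMIs. Early B cells had 8763 CPM (interval 8698 to 8827, 665 cells) and low haemoglobin erythroid cells 9391 CPM (9274 to 9508, 370 cells). These were the highest levels of the 16 stages. Azurophil granule progenitors, which make Mpo, Elane and other primary granule proteins, had 3694 CPM (3652 to 3737, 395 cells), and early progenitors with Kit or Cd34 had 3519.6 CPM (3425 to 3616, 90 cells). Specific granule neutrophils reached 2830.1 CPM (2799 to 2862, 1028 cells), below the 3602 CPM of all kept cells. At the other end stood intermediate neutrophils with 402 CPM (383 to 422, 842 cells), mature neutrophils with 544 CPM (512 to 578, 908 cells) and high haemoglobin erythroid cells with 596 CPM (540 to 657, 804 cells).

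**Figure D1:**
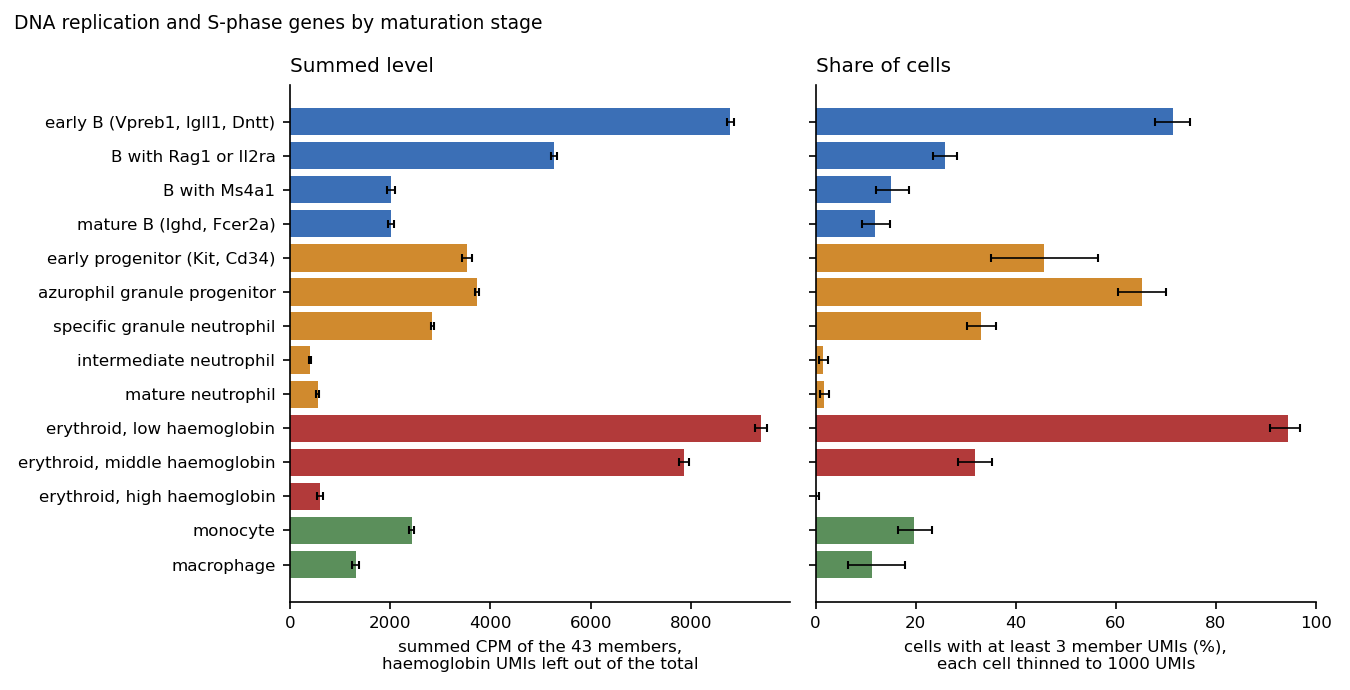
Left, summed CPM of the 43 members in 14 marker-gated stages, haemoglobin left out of the total; right, the percent of cells with at least 3 member UMIs after each cell was thinned to 1000 UMIs. Bars are 1 value per stage and error bars are 95% counting intervals; early B cells (8784 CPM) and low haemoglobin erythroid cells (9391 CPM) stand highest, and intermediate and mature neutrophils (403 and 551 CPM) and high haemoglobin erythroid cells (596 CPM) lowest.

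To look at single cells, members were also counted cell by cell. After thinning every cell to 1000 UMIs, at least 3 member UMIs were found in 94.4% of low haemoglobin erythroid cells (interval 90.7% to 96.9%, 121 shallower cells left out), 71.5% of early B cells (67.9% to 74.9%) and 65.3% of azurophil granule progenitors (60.3% to 70.02%). Specific granule neutrophils gave 33.1%, intermediate neutrophils 1.45% and mature neutrophils 1.62%. Mature neutrophils, which no longer divide, had a median depth of 1950.0 UMIs against 10078 in early B cells. The parts of free RNA and of mixed barcodes in their share were not tested. High haemoglobin erythroid cells gave 0.124%. Thinned shares are over all UMIs, haemoglobin included, which took 4.86%, 52.1% and 86.7% of UMIs in low, middle and high haemoglobin cells. Without thinning the shares were 91.9%, 89.8%, 98.5%, 70.8%, 19.1% and 10.0% in the same order. Cells with at least 3 thinned member UMIs were deeper than the others in early B cells (median 12758.5 against 4201 UMIs) and in specific granule neutrophils (13142 against 7767). The order was the reverse in azurophil granule progenitors (19041 against 19891) and macrophages (3728 against 5065). The part of depth in the shares was not tested beyond thinning.

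Most members were highest in early B cells or in low haemoglobin erythroid cells. Of the 43, 21 were highest in low haemoglobin erythroid cells, 14 in early B cells, 5 in middle haemoglobin erythroid cells and 3 in B cells without a stage marker (418 cells, 7593 CPM), when levels leave out haemoglobin. No member was highest in a neutrophil, monocyte or progenitor stage. Between early B cells and low haemoglobin erythroid cells, 2 members were at least 2 times higher in early B cells, where 25.3% of all genes were, and both partner in chromatin remodelling: the helicase Hells (246 against 95.4 CPM, ratio 2.58, interval 2.26 to 2.95) and its activator Cdca7 (217 against 92.4 CPM, ratio 2.35, 2.06 to 2.70). The flap nuclease Fen1, which trims Okazaki fragments, was the 1 member at least 2 times lower (110.0 against 226 CPM, ratio 0.49, 0.44 to 0.54), where 10.6% of all genes were. The MCM genes summed to 0.79 (0.76 to 0.81) and the nucleotide supply genes to 0.72 (0.69 to 0.75) of the erythroid level, while chromatin and histone factors summed to 1.24 (1.197 to 1.28).

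**Figure D2:**
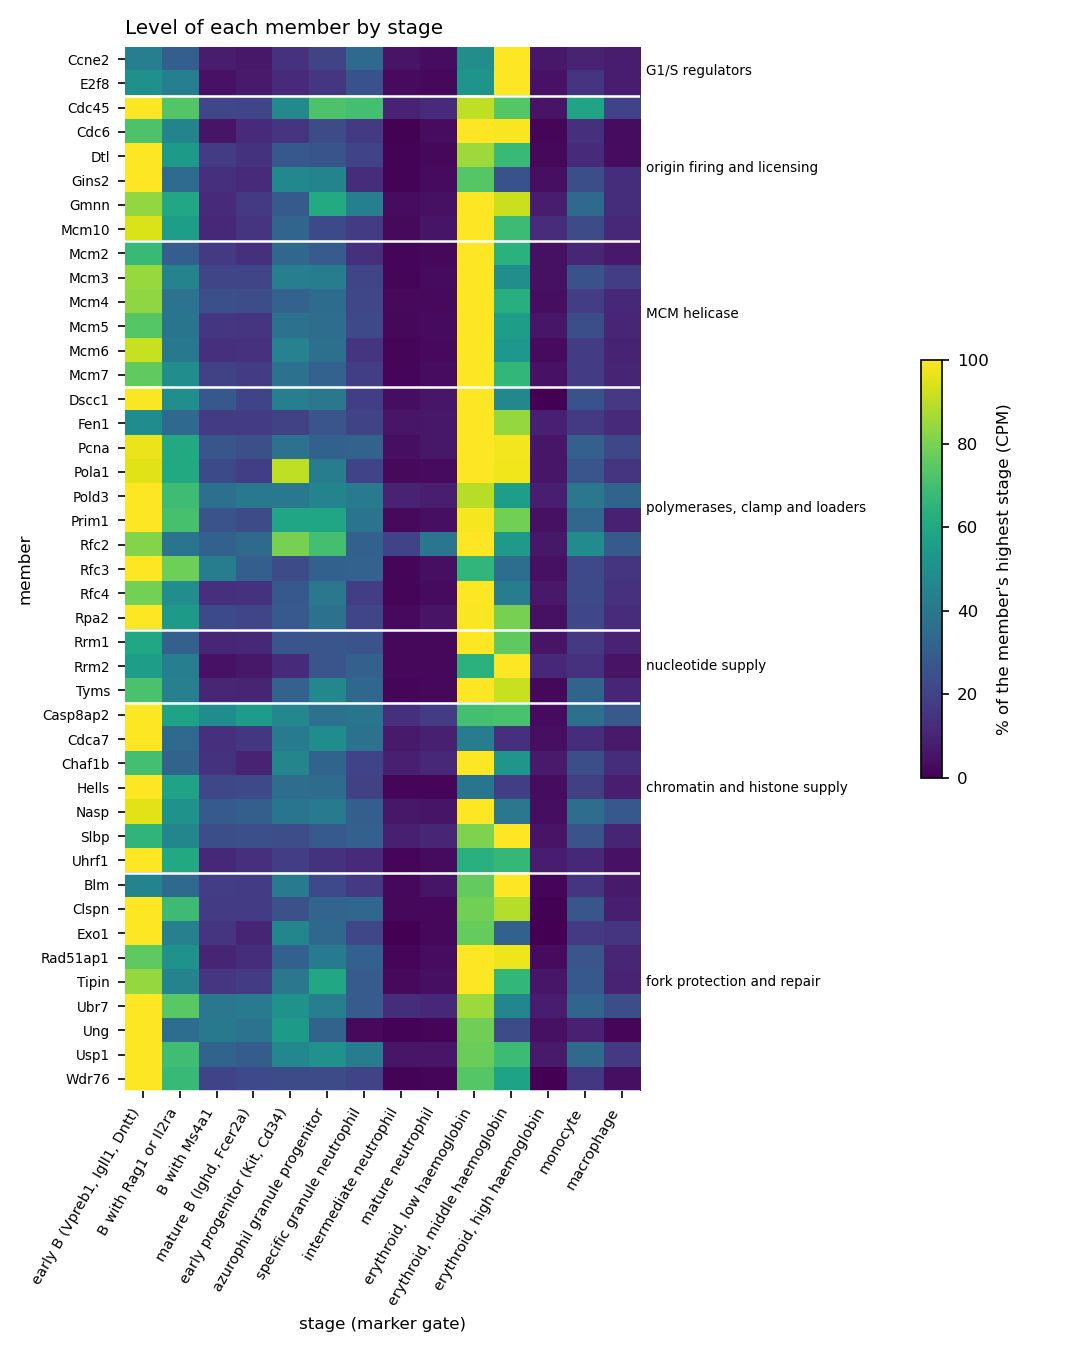
Level of each member (rows, grouped by role) in 14 stages (columns), as a percent of the member's own highest level among the stages shown, in CPM without haemoglobin. Rows are bright in early B cells and in low or middle haemoglobin erythroid cells and dark in intermediate and mature neutrophils and high haemoglobin erythroid cells; Ccne2, E2f8, Rrm2, Slbp and Blm are brightest in middle haemoglobin cells.

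Many members were high in the same stages, and their promoters were searched for the words that E2F factors bind. RefSeq promoters (GRCm38.p6, 250 bases before to 50 after the start) matched 34 of the 43 members. At least 1 of the 4 words TTTCCCGC, TTTGGCGC, TTTCGCGC and TTTGCCGC, on either strand and with overlaps counted, was in 14 of these (41.2%), against 2.32% of 27025 promoters of all genes and 4.21% of the 8987 genes with at least 100 UMIs. The other replication genes had the words in 15 of 50 promoters and the G2/M genes in 1 of 34 (2.94%). The CHR words TTTGAA and TTCGAA, known from G2/M promoters, had the other distribution: 26 of 34 G2/M promoters (76.5%) and 7 of 34 member promoters (20.6%) held one, against 19.4% of all. CCAAT was in 24 member promoters (70.6%), 27 of 34 G2/M promoters (79.4%), 23 of 50 promoters of the other replication genes (46.0%) and 37.9% of all. A word is a match of letters and not a measured binding site.

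Shown are the 5 stretches with E2F words that overlap no exon or gene of the GENCODE M21 annotation, since they include the helicase ring subunits Mcm5 and Mcm6; each is written 5′ to 3′ on the gene's own strand, with the E2F words in capitals. They lie upstream of Casp8ap2 at chr4:32615258-32615337 (plus strand), Dtl at chr1:191575545-191575588 (minus), Mcm5 at chr8:75109320-75109403 (plus), Mcm6 at chr1:128359709-128359851 (minus) and Pola1 at chrX:93632250-93632329 (minus).
Casp8ap2: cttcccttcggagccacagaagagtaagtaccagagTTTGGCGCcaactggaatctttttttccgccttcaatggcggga
Dtl: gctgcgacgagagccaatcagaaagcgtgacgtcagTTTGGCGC
Mcm5: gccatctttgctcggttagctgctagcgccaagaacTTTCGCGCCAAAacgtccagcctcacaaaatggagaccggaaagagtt
Mcm6: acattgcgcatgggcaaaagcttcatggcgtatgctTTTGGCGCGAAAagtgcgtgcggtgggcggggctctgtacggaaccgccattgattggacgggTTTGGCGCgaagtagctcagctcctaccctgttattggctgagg
Pola1: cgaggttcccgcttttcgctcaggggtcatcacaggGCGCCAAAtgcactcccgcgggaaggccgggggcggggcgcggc
In Mcm5 and Mcm6 the longer run of capitals is 2 overlapping words on opposite strands. The words lie 176 bases before the start of Casp8ap2, 8 before that of Dtl, 153 and 149 before that of Mcm5, 110, 106 and 47 before that of Mcm6 and 138 before that of Pola1.

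The 6 MCM genes encode the ring-shaped helicase that unwinds the template, and each was highest in low haemoglobin erythroid cells. Mcm7 stood at 545 CPM there, 413 in early B cells (haemoglobin left out in both), and over all UMIs at 267 in B cells with Rag1 or Il2ra, 93.7 in mature B cells, 171 in azurophil granule progenitors, 102 in specific granule neutrophils and 18.5 in mature neutrophils. Mcm2 ran from 409 CPM in low haemoglobin cells to 276 in early B cells, 56.0 in mature B cells, 116 in azurophil granule progenitors and 8.50 in mature neutrophils. Mcm3, Mcm5 and Mcm6 had 322, 321 and 332 CPM in early B cells and 78.4, 65.7 and 51.9 CPM in mature B cells. Mcm4 had 169 and 47.9 CPM. The 6 genes were low in intermediate and mature neutrophils (4.93 to 18.5 CPM) and in high haemoglobin erythroid cells (7.17 to 27.2 CPM). As a share of member UMIs the 6 genes ran from 24.9% in low haemoglobin erythroid cells and 25.2% in early progenitors to 9.57% in intermediate neutrophils.

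The nucleotide supply genes did not share 1 pattern. Rrm1 and Rrm2 encode the large and small subunits of ribonucleotide reductase, and Tyms makes thymidylate. Rrm2 stood at 484 CPM in low, 756 CPM in middle and 86.0 CPM in high haemoglobin erythroid cells, while Rrm1 stood at 613, 462 and 33.0 CPM and Tyms at 220, 201 and 4.30 CPM. Rrm2 had 90.9 CPM in early progenitors, 197 in azurophil granule progenitors, 230.4 in specific granule neutrophils and 16.0 in mature neutrophils, and Rrm1 162, 159, 155 and 14.0. Rrm2 was thus higher in middle than in low haemoglobin cells, while Rrm1 was not. In the main setting Rrm2 was also higher in specific granule neutrophils than in azurophil granule progenitors, while Rrm1 was close (155 and 159 CPM). At the stricter mitochondrial limit the Rrm2 ratio of azurophil granule progenitors to specific granule neutrophils was 1.12, the other way. The direction of the members' summed ratio between these stages changed without the most abundant genes, and Rrm1 was not compared on that scale. In the B line Rrm2 was higher in early B cells (421 CPM) than in cells with Rag1 or Il2ra (322 CPM). The members with the most UMIs in the kept cells were Pcna (18806), Slbp (15387) and Rrm2 (14904). Pcna, the sliding clamp, stood at 626 CPM in early B cells, 155 in mature B cells, 206 in specific granule neutrophils and 41.5 in mature neutrophils, and Slbp, which binds histone mRNA, at 422, 155, 197 and 69.0.

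The first comparison set early B cells, the pro-B and large pre-B cells that divide before light chain rearrangement, against mature B cells. All 43 members were higher in early B cells and 42 were at least 2 times higher, where 18.9% of 10388 genes tested were and 11.9% were at least 2 times lower. Summed, they stood at 8763 against 1998 CPM, a ratio of 4.39 (interval 4.25 to 4.53). Their median log2 ratio was 2.29 and that of all genes 0.13. Exo1, a nuclease of mismatch repair and end resection, had the highest ratio (43.9 against 4.58 CPM, 9.58, interval 4.99 to 21.1), followed by Rrm2 (421 against 47.4 CPM, 8.90, 7.24 to 11.1) and the GINS subunit Gins2 (68.0 against 8.15 CPM, 8.35, 5.09 to 14.7). The lowest were Casp8ap2, a factor of histone mRNA production (185 against 101 CPM, 1.82, 1.57 to 2.12), the clamp loader subunit Rfc2 (143 against 60.6 CPM, 2.36, 1.95 to 2.87) and Ubr7 (75.4 against 30.6 CPM, 2.47, 1.89 to 3.27). By role, the summed ratio was 7.04 for the G1/S regulators Ccne2 and E2f8, 6.89 for nucleotide supply, 6.01 for origin firing and licensing and 4.65 for MCM, against 3.73 for polymerases, clamp and loaders and 3.71 for chromatin and histone supply. The origin firing and licensing group held Cdc6, Mcm10, Cdc45, Gins2, Dtl and also Gmnn, which blocks licensing. Early B cells were deeper, with a median of 10078 against 2875.5 UMIs, and the part of depth in these ratios was not tested. With at least 1500 UMIs per cell the summed ratio was 3.22 and 40 members were at least 2 times higher.

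B cells with Rag1 or Il2ra lay between them. Their summed level was 5240.2 CPM (interval 5178 to 5303, 1358 cells), and their median cell had 2 distinct members while 22.5% of its cells had at least 10. Among clusters formed without cell cycle genes, the B-lineage cluster led by Rag1, Gm8369 and Col5a3 (1255 cells) had 1097 CPM, and the one led by Myl4, Pafah1b3 and Hes1 (810 cells) had 10333 CPM. How many cells of these clusters fell in the stage with Rag1 or Il2ra was not counted. B cells with Ms4a1 (475 cells) had 2004 CPM (1933 to 2077), an interval that overlaps that of mature B cells (1936 to 2062).

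The second comparison followed neutrophil maturation, from cells that make specific granules (myelocytes and metamyelocytes are known for this) to mature cells with Cxcr2 or Il1b. Of the 43 members, 40 were at least 2 times higher in specific granule cells, where 23.8% of 9596 genes were, and 0 were at least 2 times lower, where 22.7% were. The summed level was 2830.1 against 544 CPM, a ratio of 5.20 (interval 4.89 to 5.53), with a median log2 ratio of 2.65 against 0.06 for all genes. Specific granule cells were deeper, with a median of 9781 against 1950 UMIs, and the part of depth in these ratios was not tested. Clspn, the fork adaptor of the checkpoint kinase Chk1, led with 71.8 against 4.50 CPM (ratio 16.0, 8.36 to 35.02), then Tyms (73.1 against 5.00 CPM, 14.6, 7.91 to 30.6) and Rrm2 (230.4 against 16.0 CPM, 14.4, 10.2 to 21.1). Rfc2 was the 1 member lower in specific granule cells, with 54.8 against 68.0 CPM (0.81, 0.67 to 0.98). The uracil glycosylase Ung had 18 and 2 UMIs (1.62, 0.39 to 14.4), and the CAF-1 subunit Chaf1b had 15.6 against 8.50 CPM (1.83, 1.11 to 3.22). By role, the summed ratio was 13.1 for nucleotide supply, 10.9 for G1/S regulators, 6.97 for origin firing and licensing, 6.62 for fork protection and repair and 6.61 for MCM, against 3.50 for chromatin and histone supply and 3.28 for polymerases, clamp and loaders.

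This count changed with the filters on cells. With doublets kept, 10 members were at least 2 times higher and the summed ratio was 1.59, and with at least 1500 UMIs per cell 9 were and the ratio was 1.58. In both settings the count was 40 again, with ratios of 6.10 and 6.83, once cells with at least 5 UMIs of B-lineage markers were left out. In the main setting, leaving out those cells gave 40 members and a ratio of 6.07. Without them the members stood at 2794 CPM in specific granule, 399.5 in intermediate and 464 in mature neutrophils. The B-lineage markers summed to 736 CPM in mature and 219 CPM in specific granule neutrophils, and 4.07% and 7.39% of the cells had at least 5 of these UMIs. Members were already low 1 stage before: against intermediate neutrophils, which carry specific and gelatinase granule RNA together, 42 members were at least 2 times higher in specific granule cells, where 27.1% of all genes were (9.23% were lower), and the summed ratio was 7.04 (6.70 to 7.41). Cdc6, which loads MCM onto origins, led that step (28.01 against 1.23 CPM, 22.7, 9.63 to 70.5), and Rfc2 was again the exception (54.8 against 36.2 CPM, 1.51, 1.26 to 1.82). Exo1 had 0 UMIs in intermediate neutrophils and was at least 12.5-fold higher in specific granule cells, against a floor of 3 counts over the group, and Ung had 18 and 3 UMIs (2.19, 0.64 to 11.6).

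The third comparison set low against high haemoglobin erythroid cells. All 43 members were at least 2 times higher in low haemoglobin cells, but 70.7% of 8186 genes were too (8.42% were lower), and the median log2 ratio of all genes was 1.88, so the count says little by itself. The members' median was 4.05, and their sum was 9391 against 596 CPM, a ratio of 15.7 (interval 14.3 to 17.4). Clspn had 443 UMIs in low and 1 in high haemoglobin cells (ratio 117, 20.8 to 4614), Cdc6 440 and 2 (57.9, 15.9 to 479) and Tyms 583 and 3 (51.1, 17.4 to 249). Dscc1, a subunit of the clamp loader used in sister chromatid cohesion, Exo1 and Wdr76 had 0 UMIs in high haemoglobin cells, and against a floor of 3 counts over that group they were at least 9.56-fold, 7.81-fold and 18.8-fold higher in low haemoglobin cells. The lowest ratios were those of Rrm2 (5.63, 4.34 to 7.42), Ccne2, the cyclin E that drives entry into S phase (7.51, 3.90 to 16.6), and Mcm10 (7.76, 3.88 to 18.2). With haemoglobin counted in the totals the summed ratio was 113, and without cells carrying at least 5 B-lineage marker UMIs it was 17.8.

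The fourth comparison set azurophil granule progenitors against early progenitors with Kit or Cd34 and gave small differences. Both gates were applied to the named progenitor cluster (390 cells) and to 2 unnamed clusters. In 1 of these the progenitor markers tied with those of dendritic cells (220 cells, led by Siglech and Ccr9). In the other they tied with those of basophils or mast cells (69 cells, led by Prss34 and Mcpt8). Cells with a UMI of marker genes of those types were kept out of the early stage. The azurophil granule stage (395 cells, median 19090 UMIs) was close in size and depth to the named cluster (390 cells, median 19058.5 UMIs). The sides may thus come largely from different clusters, and the cells of each stage were not counted by cluster. Early progenitors had a median of 10 neutrophil marker UMIs per cell against 735 in azurophil granule progenitors, so the early cells were not placed in the neutrophil line. Summed, these markers stood at 35660 against 95218 CPM, so some early barcodes carried far more of them than the median cell. These barcodes were kept in the sums. The summed ratio was 1.05 (interval 1.02 to 1.08), and 40 of 43 members stayed within 2 times. Rrm2 (197 against 90.9 CPM, 2.17, 1.82 to 2.61) and Gmnn, the geminin that blocks a second round of licensing (159 against 74.0 CPM, 2.15, 1.77 to 2.64), were at least 2 times higher, where 5.84% of 10077 genes were. Pola1, the catalytic subunit of polymerase alpha, was at least 2 times lower (40.7 against 88.2 CPM, 0.46, 0.38 to 0.57), where 23.5% were. Next to them came Cdc45, a part of the active helicase (56.4 against 37.0 CPM, 1.52, 1.15 to 2.05), the repair helicase Blm (34.4 against 63.3 CPM, 0.54, 0.43 to 0.69) and Ung (20.4 against 34.99 CPM, 0.58, 0.42 to 0.81). The early side holds 90 cells. At a limit of 5% mitochondrial UMIs 0 members were at least 2 times higher, and with at least 1500 UMIs per cell only 1 early cell was left. Clusters were formed and named anew in that setting, and the gate takes cells only from progenitor clusters or clusters tied with them. In the main setting the early cells had a median of 14257.5 UMIs. The cause of the loss was not tested.

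**Figure D3:**
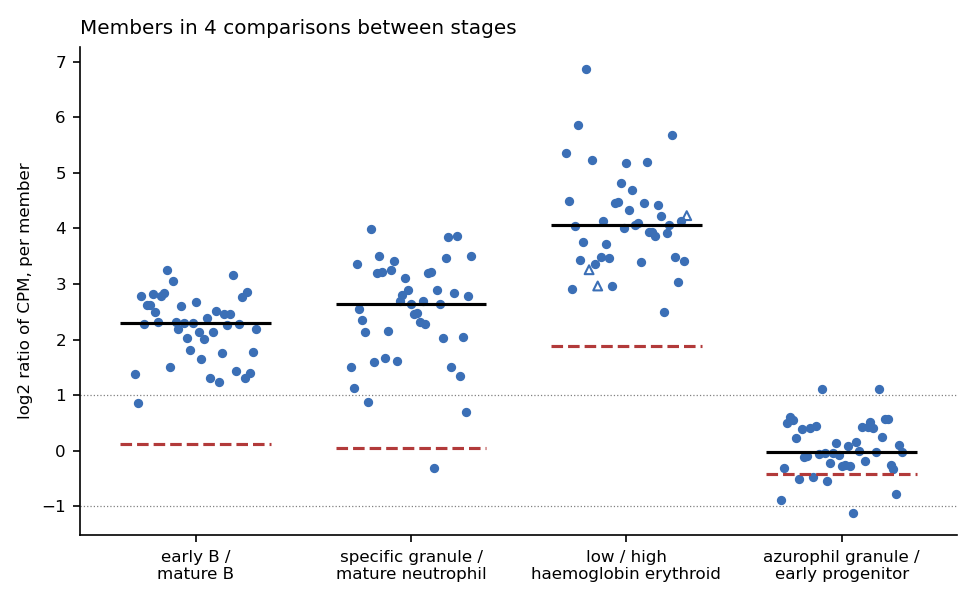
Log2 ratio of CPM for each of the 43 members (points) in 4 comparisons between stages, with the members' median (black line), the median of all genes tested (dashed red line) and the 2 times limits (dotted). Open triangles are 3 lower bounds; the members' medians are 2.29, 2.65, 4.05 and -0.02, and those of all genes 0.13, 0.06, 1.88 and -0.42.

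Between stages that both hold many members, single members had unlike ratios. There are 3 such steps: early B cells to B cells with Rag1 or Il2ra, low to middle haemoglobin erythroid cells, and azurophil granule progenitors to specific granule neutrophils. These 3 steps share no cells. Ung, Gins2 and Dscc1 were among the 10 members with the highest ratios in every step. Ccne2, E2f8, Rrm2 and Slbp were among the 10 lowest in every step. These genes were chosen after their values were seen, so this is a description. Over 7 other settings the 4 lowest were shared by all 3 steps each time, as were Gins2 and Ung, while Dscc1 was not at a limit of 5% mitochondrial UMIs.

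Gins2, a subunit of the active helicase (chr8:120578633-120589304, minus strand, GRCm38), stood at 68.0 against 23.8 CPM in the B step (ratio 2.86, interval 2.35 to 3.51), 50.2 against 17.3 in the erythroid step (2.90, 2.07 to 4.14) and 30.5 against 8.92 in the neutrophil step (3.42, 2.69 to 4.36). Ung, which cuts uracil out of DNA (chr5:114130386-114139323, plus strand), had 64.3 against 23.2 CPM (2.77, 2.27 to 3.41), 50.6 against 15.1 (3.35, 2.35 to 4.88) and 20.4 against 1.62 (12.6, 7.71 to 21.8). It had a UMI in 23.8% of azurophil granule progenitors and 1.36% of specific granule cells, while Ccne2 had one in 38.7% and 28.8%. The next highest ratio in that step was 3.42, for Gins2. Over 7 other settings the Ung ratio ran from 8.005 (at least 1500 UMIs per cell) to 21.6 (without cells carrying B-lineage markers) in the neutrophil step. In the erythroid step it ran from 2.56 with doublets kept to 7.50 (3.93 to 15.09) at a limit of 5% mitochondrial UMIs, and was 5.49 without cells carrying B-lineage markers. Dscc1 stood at 40.8 against 20.1, 41.1 against 19.1 and 16.2 against 7.56 CPM in the 3 steps (ratios 2.03, 2.15 and 2.15).

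Ccne2 (chr4:11191351-11204779, plus strand) stood at 83.7 against 58.4 CPM in the B step (1.43), at 97.0 against 197 in the erythroid step (0.49, interval 0.42 to 0.57) and at 39.9 against 66.8 in the neutrophil step (0.60, 0.52 to 0.68). E2f8, an E2F family member that represses rather than activates (chr7:48866429-48881596, minus strand), gave 171 against 146 CPM (1.17, 1.07 to 1.28), 176 against 340.02 (0.52, 0.46 to 0.58) and 53.6 against 85.1 (0.63, 0.56 to 0.71). Both were thus higher in the later stage of the erythroid and neutrophil steps and higher in the earlier stage of the B step. Rrm2 had ratios of 1.31, 0.64 and 0.86, and Slbp of 1.43, 0.80 and 0.92. At a limit of 5% mitochondrial UMIs the last ratio of each turned to 1.12 and 1.10, while the 4 genes stayed among the 10 lowest in every step.

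**Figure D4:**
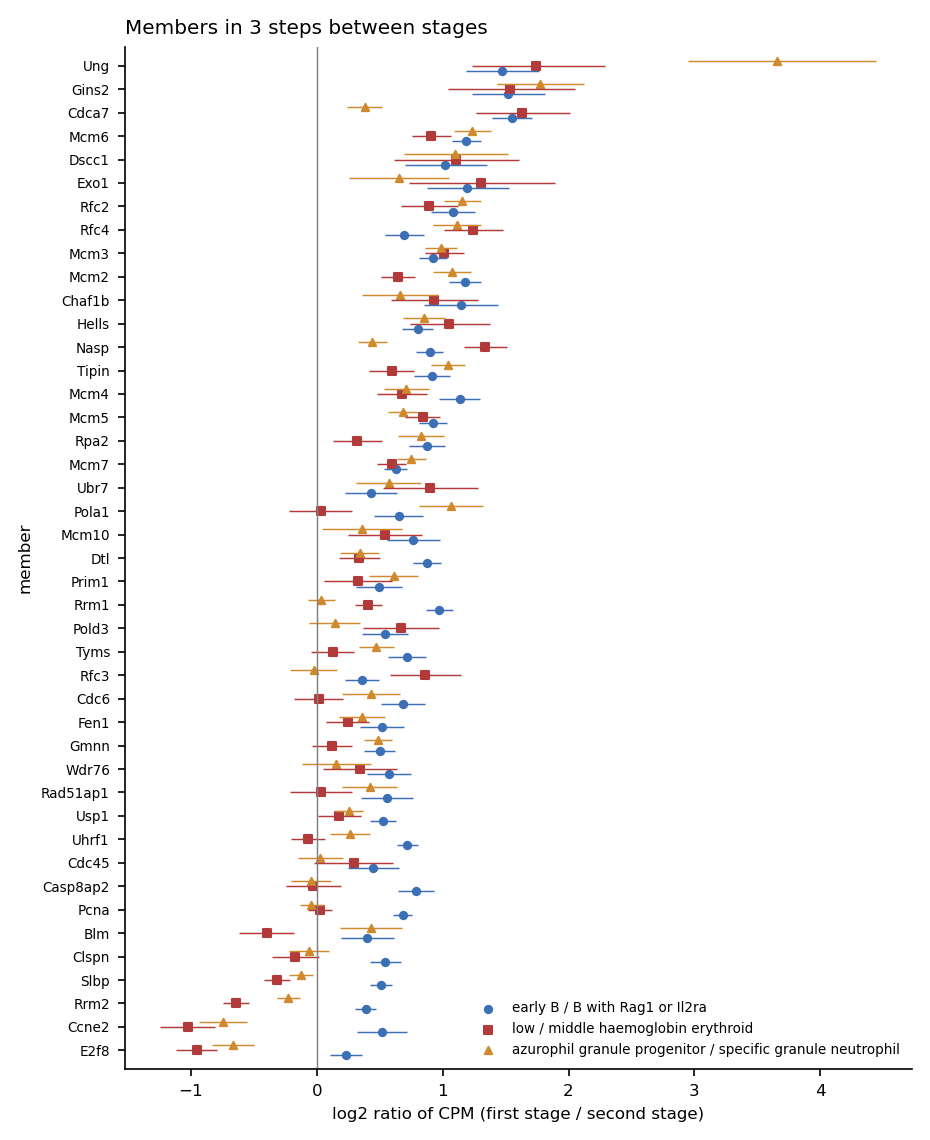
Log2 ratio of CPM for each member in the 3 steps between stages, first over second stage, with 95% counting intervals, members ordered by their mean. Ung, Gins2 and Cdca7 stand at the top and E2f8, Ccne2 and Rrm2 at the bottom; Ung in the neutrophil step (ratio 12.6) lies farthest to the right.

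In the B step the summed ratio over the 43 members was 1.67 (interval 1.65 to 1.70) and 10 members were at least 2 times higher, where 9.30% of all genes were (8.78% were lower). At a limit of 5% mitochondrial UMIs 21 members were, and the share of all genes was not computed there. In the erythroid step it was 1.195 (1.17 to 1.22), with 9 members higher, where 26.1% of all genes were, and Ccne2 lower, where 16.8% were. That count was 15 at the 5% limit, and without cells carrying B-lineage markers (153 of the 747 middle haemoglobin cells) the sum was 1.08 (1.06 to 1.101). In the neutrophil step it was 1.31 (1.28 to 1.33), with 9 higher, where 28.7% of all genes were (9.50% were lower). The direction of that last sum depends on the scale: without the 50 most abundant genes it was 0.973, with 2 members at least 2 times higher. The neutrophil markers, granule genes among them, made up 387201 CPM in specific granule cells against 95218 CPM in azurophil granule progenitors.

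Mitosis genes gave a second reading of the same cells. A list of 40 G2/M genes (Mki67, Cdc20, Ccnb1, Plk1 and others) shares no gene with the members. In low haemoglobin erythroid cells the members had 1.11 UMIs for each G2/M UMI, in middle haemoglobin cells 0.36 and in high haemoglobin cells 0.12. The G2/M genes stood at 8464, 21745 and 4932 CPM without haemoglobin while the members stood at 9391, 7857 and 596. So the members were highest in low and the G2/M genes in middle haemoglobin cells. Of the 40 G2/M genes, 38 were at least 2 times higher in low than in high haemoglobin cells, where 70.7% of all genes were. The other 2, at least 2 times higher in high haemoglobin cells (8.42% of all genes), were Ube2c (489 and 2391 CPM) and Nusap1 (221 and 1062 CPM). They make up most of the 4932 CPM there. Cdc20 (129 and 2.87 CPM) and Bub1 (64.5 and 4.30 CPM) were among the 38. The member to G2/M ratio was 1.01 in early B cells, 0.70 in B cells with Rag1 or Il2ra, 0.94 in azurophil granule progenitors and 0.54 in specific granule neutrophils. Leaving out cells with at least 5 B-lineage marker UMIs moved the members in low, middle and high haemoglobin cells to 9814, 9093 and 551 CPM, in the same order of stages.

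Cell by cell, members were higher where G2/M genes were present in most stages. Early B cells with at least 2 G2/M UMIs after thinning had 9.64 member UMIs per 1000 (interval 9.37 to 9.93, 481 cells) and those with 0 had 1.73 (1.495 to 1.99, 114 cells). Specific granule neutrophils gave 3.38 (3.23 to 3.53) and 0.68 (0.59 to 0.78), and middle haemoglobin erythroid cells 4.89 (4.70 to 5.09) and 0.32 (0.23 to 0.44). Low haemoglobin erythroid cells had 9.95 (9.54 to 10.4, 229 cells) with and 4.57 (3.13 to 6.45, 7 cells) without G2/M UMIs. Azurophil granule progenitors had 3.92 (3.69 to 4.16, 283 cells) with and 3.66 (3.13 to 4.25, 47 cells) without G2/M UMIs, intervals that overlap. Early progenitors had 3.43 (2.89 to 4.04) and 2.52 (2.00 to 3.12). Cells with at least 3 member UMIs and fewer than 2 G2/M UMIs made up 17.5% of azurophil granule progenitors and 22.2% of early progenitors, against 6.3% of early B cells and 4.2% of specific granule neutrophils. The G2/M genes stood at 3940, 3532, 8697 and 5206 CPM in these stages in turn. A lower G2/M level leaves more cells under 2 G2/M UMIs, and the part of this in the shares was not tested. High haemoglobin erythroid cells had 0.07 and 0.08. In middle haemoglobin erythroid cells the opposite kind, with at least 2 G2/M UMIs and fewer than 3 member UMIs, made up 34.4%. Haemoglobin stayed in the thinned totals, with 52.1% of UMIs in middle and 86.7% in high haemoglobin cells. A cell with more haemoglobin has fewer UMIs left for members and G2/M genes alike. The part of this in the erythroid values was not tested.

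**Figure D5:**
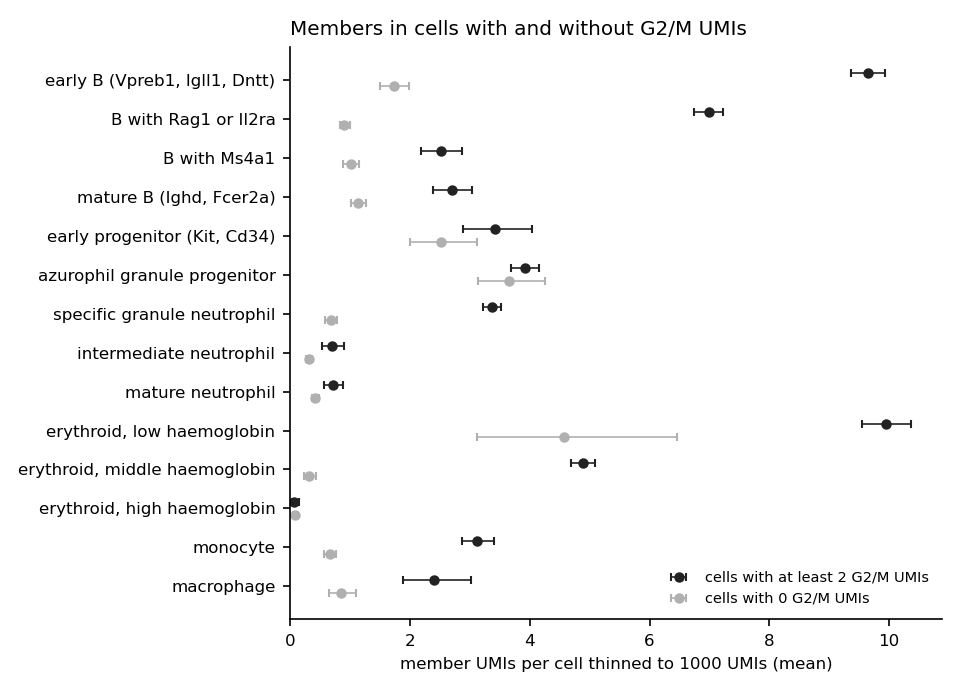
Mean member UMIs per cell thinned to 1000 UMIs, haemoglobin included, in cells with at least 2 G2/M UMIs (black) and with 0 (grey), by stage, with 95% counting intervals. The points lie far apart in early B cells (9.64 and 1.73) and close together in azurophil granule progenitors (3.92 and 3.66).

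Most other replication genes differed in the same direction as the members. Of 60 further replication and S-phase genes, 49 were at least 2 times higher and 0 lower in early against mature B cells, where 18.9% and 11.9% of all genes were. In specific granule against mature neutrophils 49 were higher and 2 lower, against 23.8% and 22.7% of all genes. In early B cells the nuclease and helicase Dna2 led (58.5 against 7.13 CPM, ratio 8.20, interval 4.84 to 15.1), with E2f7, the partner of E2f8, next (75.8 against 10.2 CPM, 7.44, 4.78 to 12.3), and the polymerase delta subunit Pold4 (135 against 215 CPM, 0.63, 0.56 to 0.71) and Donson (26.8 against 37.7 CPM, 0.71, 0.54 to 0.94) were the lowest. In neutrophils E2f7 (529 and 2 UMIs) and the firing factor Ticrr (276 and 2 UMIs) led, while Dck, the kinase that salvages deoxycytidine (50.9 against 247 CPM, 0.21, 0.18 to 0.23), and the primase subunit Prim2 (19.5 against 58.5 CPM, 0.33, 0.26 to 0.42) were higher in mature cells. In erythroid cells 58 of 60 were at least 2 times higher in low haemoglobin cells, where 70.7% of all genes were, and 1 was lower, where 8.42% were: E2f2, an E2F factor known in late erythroid cells, with 289 CPM in low and 1690.3 CPM in high haemoglobin cells (0.17, 0.16 to 0.19). Between azurophil granule and early progenitors, 1 of the 60 was higher (Rnaseh2c, 2.40), where 5.84% of all genes were, and 2 were lower (Orc5, 0.43, and Pole, 0.49), where 23.5% were.

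A list of 15 genes known to hold cells out of the cycle was read the same way. Of 14 tested in B cells, 3 were at least 2 times higher in early cells, where 18.9% of all genes were, and 2 in mature cells, where 11.9% were. Of 13 tested in neutrophils 1 was higher in specific granule cells (23.8% of all genes) and 5 in mature cells (22.7%). Of 14 tested in erythroid cells 5 were higher in low haemoglobin cells (70.7%) and 2 in high haemoglobin cells (8.42%). Btg1, an antiproliferative factor, stood at 441 against 2146 CPM in B cells (ratio 0.21, interval 0.20 to 0.21) and 544 against 3707 CPM in neutrophils (0.15, 0.14 to 0.15), and Btg2 at 209 against 590.1 and 109 against 1036 CPM (0.35 and 0.11). The kinase inhibitor gene Cdkn2c was on the members' side in both (4.25 and 16.8). In erythroid cells Mxd1 (58.1 in low, 654 CPM in high haemoglobin cells, 0.09) and Cdkn1b (64.5 and 439 CPM, 0.15), the p27 inhibitor, had the lowest ratios. Ccng1 (45.6 and 7.17 CPM, 6.37, 2.65 to 19.96) and E2f5 (21 and 1 UMIs) had the highest.

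Outside these lines the members were at middle or low levels. Monocytes with Ly6c2, Ccr2 or F13a1 (535 cells) had 2368 CPM and macrophages with C1q genes or Vcam1 (223 cells) had 1262 CPM, a summed ratio of 1.88 (interval 1.77 to 2.00), and 20 of 43 members were at least 2 times higher in monocytes, where 9.62% of all genes were (11.0% were lower). Ung had 33 and 1 UMIs (5.41, 0.91 to 220.1). Cdc6 (22.7 against 5.44 CPM, 4.16, 1.74 to 13.05) and Wdr76 (17.5 against 4.35 CPM, 4.02, 1.52 to 15.04) came next, on 5 and 4 UMIs in macrophages, and Exo1 (1.12), Ccne2 (1.24) and Pold3 (1.25) were the lowest. T or NK-like cells (323 cells) had 1825 CPM, osteoclast-like cells (35 cells) 1990 CPM, osteoblast-like cells (129 cells) 1565 CPM and plasma cell-like cells (49 cells) 659 CPM, the lowest of the 9 named classes. After thinning, 1 of 48 plasma cells (2.08%) had at least 3 member UMIs, against 10 of 31 osteoclasts (32.3%, interval 16.7% to 51.4%). Without thinning it was 42 of 49 plasma cells (85.7%) and 26 of 35 osteoclasts (74.3%). The plasma cell cluster was led by Jchain, Igha and Ighg2c. Antibody RNA was left in its total, which lowers its CPM and thinned counts, and levels without it were not computed. Of the 31 osteoclasts, 8 had member and G2/M UMIs together, and the source of these UMIs was not tested. The 10 with at least 3 member UMIs had a median of 35237 UMIs against 20502 in the others. Neutrophil markers summed to 14645 CPM in macrophages and 3404 CPM in monocytes, and erythroid markers to 35236 and 23208 CPM. The part of other cells' RNA in these low levels was not tested. Monocytes had a median of 8138 UMIs and macrophages 1230, and the part of depth in their ratios was not tested.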

How the data were processed

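Single cells from tibia were measured by droplet RNA sequencing with UMIs. The authors deposited 1 matrix of UMI counts per gene and barcode, made with Cell Ranger 3.1.0 per the file headers, and the submitters' processing notes also name Seurat 3 and the mm10 build. The matrix pools 4 sample records that its barcodes do not separate, so it is 1 library with no replicates and no test was run.

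Barcodes below 500 UMIs or 200 genes, or above 10% mitochondrial UMIs, were dropped, and likely doublets (4.74% of those) were removed. Counts were scaled to 10000 per cell, and 2000 variable genes, 30 principal components, 15 neighbours and resolution 1.0 gave Leiden clusters (scanpy 1.11.5, leidenalg 0.10.2, Python 3.11.15). The members and other cell cycle lists were left out of the clustering. Clusters were named from marker lists with at least 3 raised markers.

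Levels are summed CPM. A ratio is called at 2 times where the 2 sides together hold 20 UMIs or more, and a side at 0 is set to a floor of 3 counts. Ratio and level intervals are exact at 95% (Poisson, or binomial for ratios), and shares have Clopper-Pearson intervals. They cover counting error only. Median depth by stage ran from 1230.0 to 19090.0 UMIs.

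The genes named are the 3 highest and 3 lowest ratios of a comparison, the 3 members with most UMIs, the MCM and nucleotide supply members, members that go against the others or have 0 UMIs on a side, and the 2 highest and 2 lowest of each other list. Members and lists were chosen with earlier results of these data known. Chosen after these data were seen were the gates, 6 of the 10 comparisons (the 3 steps among them), the step genes, the settings that leave out cells with B-lineage markers, and the motif search.

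Alternatives were a mitochondrial limit of 5%, doublets kept, at least 1500 UMIs per cell, cell cycle genes kept in the clustering, resolution 0.5, CPM without the 50 most abundant genes, other fold and UMI minimums, stricter gates, and thinning to 2000 UMIs. Calls of ratios were first run on simulated summed counts with planted changes and counting error only. The simulation held no cell to cell spread and no mixed barcodes, so it cannot speak to those.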

Additional observations from a re-analysis of the deposited data

How the results depend on the processing

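With 1 library, no replicate could be left out. No paired analysis was possible because the matrix is 1 library whose records cannot be separated and no test was run. The counts of members at least 2 times higher in early against mature B cells (40 to 43 over 10 alternatives) and in low against high haemoglobin erythroid cells (43 in all 10) held. The neutrophil count was 10 with doublets kept and 9 at a minimum of 1500 UMIs, and 40 to 42 in the other 10 settings. The azurophil granule against early progenitor count was 0 at a 5% mitochondrial limit and 0 at 1500 UMIs, where 1 early cell was left. At 1500 UMIs the clusters, from which that stage is drawn, were formed and named anew. At that 5% limit the class levels were 3802 CPM in B lineage, 1797 in neutrophils and 2337 in erythroid cells, and the shares 61.9% in early B cells and 29.7% in specific granule neutrophils, with 105 early and 75 mature B cells left. With doublets kept, neutrophils stood at 2211 and erythroid cells at 3455 CPM, and the low haemoglobin share at 87.1%. At 1500 UMIs, B lineage stood at 6782 and neutrophils at 2481 CPM, and the shares at 39.7% (specific granule) and 56.4% (azurophil granule). Neutrophils stood at 1940.2 CPM at resolution 0.5 and at 1917 CPM without cells carrying B-lineage markers. Without the 50 most abundant genes the levels were 8105 (B lineage), 3721 (neutrophil) and 9464 CPM (erythroid). For early B, specific granule, low haemoglobin and azurophil granule cells in turn, the shares were 80.4%, 48.1%, 98.9% and 88.3% on thinning to 2000 UMIs, 78.0%, 43.5%, 97.2% and 80.7% at 2 member UMIs, and 64.1%, 20.6%, 81.9% and 32.9% at 5. In the azurophil granule against specific granule step the summed ratio turned to 0.973 without the 50 most abundant genes, and at the 5% limit Rrm2 turned to 1.12 and Slbp to 1.10. The same limit gave 21 members higher in the B step and 15 in the erythroid step. The cause of these moves was not tested.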
